A study of Mus musculus with 24 samples.

Results

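The genes described here are 10 genes that mark pericentral hepatocytes and respond to Wnt signalling: *Glul*, *Oat*, *Axin2*, *Lgr5*, *Tbx3*, *Rhbg*, *Slc1a2*, *Znrf3*, *Rnf43* and *Lect2*. They were taken by name from the 19938 genes that have a probe set with a single symbol on the array, with the brightest probe set on average over the 24 livers taken where a gene had several. All 10 were found. In *Glul* alone there was a choice between probe sets, and its other probe set ran with the one used (r = 0.954 over 24 livers). The signals were compared between the 4 groups of a study of base excision repair and diet.

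Liver RNA was measured on 24 Mouse Gene ST arrays, 1 per mouse, in 4 groups of 6 biological replicates. All mice were C57BL6 males housed singly for 10 weeks. They were WT mice on chow, *Ogg1-/-* mice on chow, WT mice on a high-fat diet (HFD) and *Ogg1-/-* mice on a HFD, all fed for 10 weeks. *Ogg1-/-* mice lack the DNA glycosylase OGG1, which removes oxidized guanine from DNA, in every cell of the body, and the allele had been backcrossed to C57BL/6J. The labels give 10 weeks of age at the start of feeding and the methods give a later age. All values are log2 signals made by robust multiarray averaging (RMA), so that a difference of 1 is a doubling of signal. Signals are compared only within a probe set, as probes differ in brightness. A gene passed the test when limma gave it an adjusted p under 0.05 (Benjamini-Hochberg adjustment across all 35556 probe sets).

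The liver lobule runs from the portal vein to the central vein, and hepatocytes along it carry different enzymes. Endothelial cells of the central vein secrete Wnt ligands and R-spondin, which keep β-catenin active in the hepatocytes next to them. These hepatocytes make glutamine from ammonia and glutamate, and much of their drug metabolism lies there too. Within the gene set, *Axin2*, *Lgr5*, *Znrf3* and *Rnf43* belong to the Wnt pathway itself, *Tbx3* encodes a transcription factor, *Glul*, *Oat*, *Rhbg* and *Slc1a2* handle ammonia, ornithine and glutamate, and *Lect2* encodes a secreted protein.

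Features of the whole series that bear on these genes were as follows. The *Ogg1* probe set was lower in all 6 *Ogg1-/-* livers than in any WT liver, by 0.54 on chow and 0.59 on the HFD on the log2 scale (two-sided exact permutation test, p = 0.00216 in each diet, the smallest p that 6 against 6 allow). The mean log2 signal of 6 hepatocyte markers ran from 12.97 to 13.50 over the 24 livers. Along the first principal component of the spread within chow groups (the axis score), 1 liver, *Ogg1-/-* chow replicate 1, lay far from the rest and made up 59.2% of the squared deviations along it. On the HFD the axis score was 18.5 or more in every *Ogg1-/-* liver and 10.4 or less in every WT liver. The score thus splits the genotypes there completely. With it as a covariate a call can be lost though the difference does not shrink. A call lost on the HFD therefore does not separate genotype from the score. Array names end in "fr" for all 6 WT chow livers and 1 WT HFD liver and in "f" for the rest, and the sources used here do not say what the endings mean. A single liver, WT HFD replicate 5, therefore separates the ending from genotype on chow and, nearly so, from diet in WT livers, and values with the ending as a covariate rest on it. Clock genes also differed. *Dbp*, a clock output gene, was higher in *Ogg1-/-* livers by 1.63 on chow, and *Arntl*, which encodes the clock activator BMAL1, was lower by 1.56 (log2 difference -1.56). The sources used here do not give the time of day at which livers were taken, so genotype and time of day cannot be told apart.

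The bases before a RefSeq start are shown for 2 genes, *Lect2*, whose signal differed most between the diets, and *Slc1a2*, whose difference between genotypes moved most with diet. They are the only members whose window of 250 bases held CTTTGA or CTTTGT, forms of the core that the TCF and LEF partners of β-catenin recognise. Sequences are from RefSeq (GRCm38.p6), written 5′ to 3′ on the strand of the gene, and capitals mark the matches (TCAAAG is CTTTGA on the opposite strand). *Lect2* is at chr13:56548539-56548788 on the minus strand, with 1 match 31 to 26 bases before the start. *Slc1a2* is at chr2:102706188-102706437 on the plus strand, with a match 206 to 201 bases before the start on the opposite strand and another 77 to 72 bases before it on the same strand. These starts lie inside the span of each gene, 21 bases from its first base in *Lect2* and 48199 bases in *Slc1a2*, so the *Slc1a2* window precedes an internal start and not the beginning of the gene.
Lect2: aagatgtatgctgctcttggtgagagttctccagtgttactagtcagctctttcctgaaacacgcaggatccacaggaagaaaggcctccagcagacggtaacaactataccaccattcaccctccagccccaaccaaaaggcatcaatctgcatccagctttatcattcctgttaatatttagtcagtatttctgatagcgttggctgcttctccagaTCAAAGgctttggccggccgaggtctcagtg
Slc1a2: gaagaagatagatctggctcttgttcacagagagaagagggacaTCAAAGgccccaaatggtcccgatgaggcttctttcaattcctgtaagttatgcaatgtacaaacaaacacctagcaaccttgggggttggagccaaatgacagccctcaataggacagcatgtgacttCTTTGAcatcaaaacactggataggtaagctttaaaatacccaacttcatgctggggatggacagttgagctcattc
Windows were listed for 6 of the 10 genes (7 windows, as *Rnf43* has 2). A match was present in 2 of 7 member windows (28.6%) and in 9075 of 32851 windows of all genes (27.6%), a share like that of the members. Promoters of *Lgr5*, *Tbx3*, *Rhbg* and *Znrf3* were not analysed here.

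Diet was examined first, because the clearest difference among the 10 genes was between diets. *Lect2*, which encodes a protein that hepatocytes secrete into blood, rose on the HFD in both genotypes. In WT livers on chow its log2 signal ran from 12.29 to 12.57 with a median of 12.40, and in WT livers on the HFD from 12.85 to 13.23 with a median of 13.01. In *Ogg1-/-* livers it ran from 12.32 to 12.75 (median 12.45) on chow and from 12.93 to 13.16 (median 13.09) on the HFD. No HFD liver of either genotype overlapped with a chow liver. The difference was 0.63 in WT livers (standard error 0.08, 1.55-fold, limma adjusted p = 7.5e-05) and 0.57 in *Ogg1-/-* livers (standard error 0.08, 1.48-fold, limma adjusted p = 0.000115). Between the genotypes *Lect2* differed by 0.10 on chow (95% confidence interval -0.06 to 0.25) and 0.04 on the HFD (-0.12 to 0.19), neither past the test. *Lect2* passed between the diets in both genotypes without any 1 of the 24 livers and with the axis score as a covariate (0.61 and 0.55). Clock genes moved between the diets as well. On the HFD 4 of 8 were higher and 1 lower in WT livers, against 0.925% of all probe sets passing. In *Ogg1-/-* livers 4 were higher and 2 lower, against 9.53% of all probe sets. The part of clock genes in the *Lect2* values was not tested.

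*Lect2* was the only member that passed between the diets. In WT livers 1 of 10 passed, where 0.925% of all probe sets did, and the same gene also met a fold of 1.5, as did 0.385% of all. At an unadjusted p under 0.05 (limma) there were 5 members, *Lect2*, *Rnf43*, *Glul*, *Slc1a2* and *Axin2*, against 13.4% of all probe sets. All 10 differences were positive, with a median of 0.24 against 0.02 over all probe sets. In *Ogg1-/-* livers 1 of 10 passed, against 9.53% of all probe sets, and none reached a fold of 1.5, against 3.11% of all. There 3 members had an unadjusted p under 0.05 (limma), against 8985 of 35556 probe sets. In these livers 5 differences were positive and 5 negative, with a median of -0.01.

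*Glul*, which encodes glutamine synthetase and is confined to the rows of hepatocytes nearest the central vein, did not pass in any comparison. Its log2 signal in WT livers ran from 12.51 to 12.64 (median 12.59) on chow and from 12.70 to 13.06 (median 12.83) on the HFD. These ranges did not overlap, which was so for 2 of the 10 members, *Glul* and *Lect2*, and for 2.25% of all probe sets. The difference was 0.26 (standard error 0.08, unadjusted p = 0.00352, limma adjusted p = 0.139). In *Ogg1-/-* livers *Glul* ran from 12.58 to 12.81 (median 12.76) on chow and from 12.47 to 12.98 (median 12.90) on the HFD, with overlap, and differed by 0.10 (95% confidence interval -0.06 to 0.27). There *Lect2* was the only member without overlap, against 2.4% of all probe sets. The genotypes differed in *Glul* by 0.14 on chow (95% confidence interval -0.03 to 0.30) and -0.02 on the HFD (-0.19 to 0.14).

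**Figure D1:**
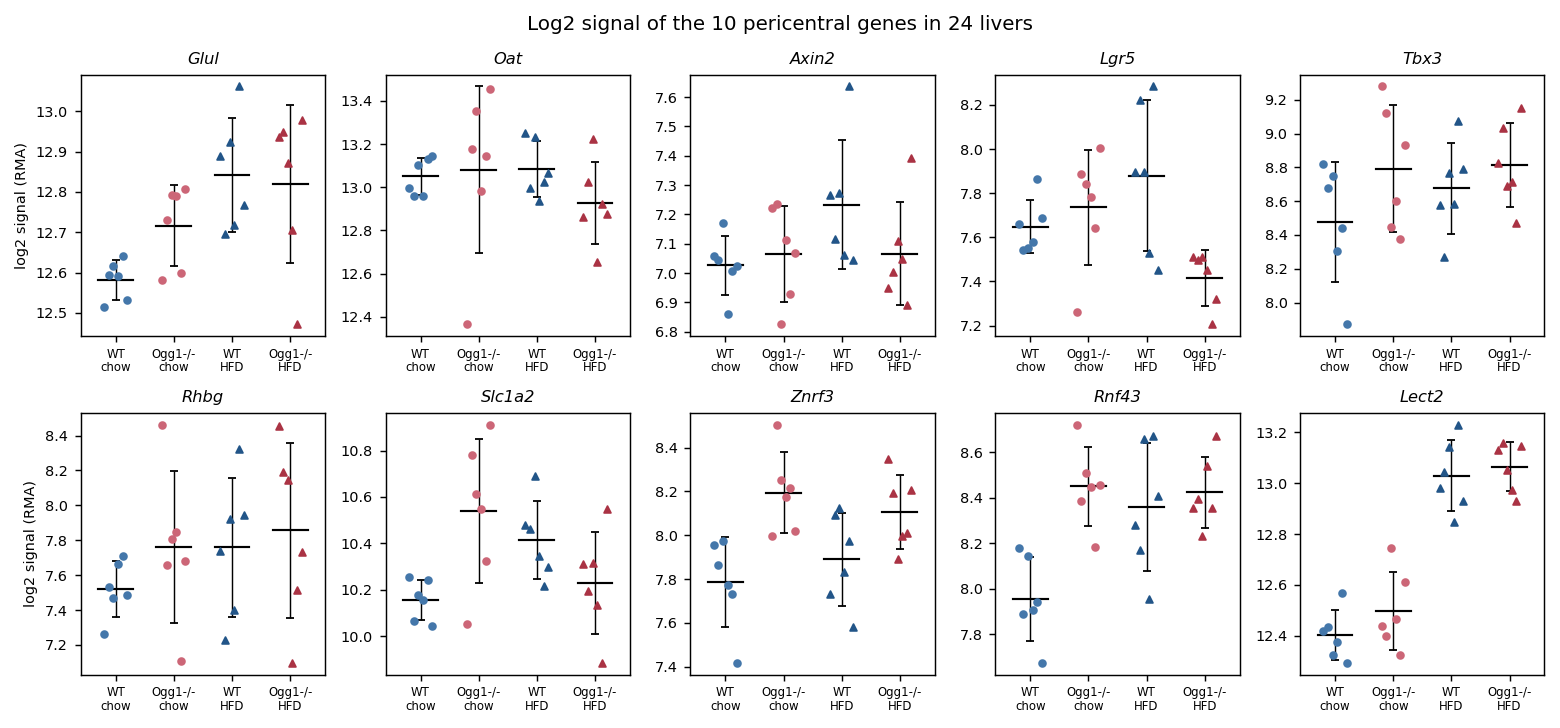
Log2 signal (RMA, vertical axes, each panel on its own range) of the 10 pericentral genes in WT and *Ogg1-/-* livers on chow (circles) and on the HFD (triangles). Each point is a mouse, and bars give the mean and the SD of 6 mice. *Lect2* lies between 12.29 and 12.75 in every chow liver and between 12.85 and 13.23 in every HFD liver, and *Lgr5* is at or below 7.51 in every *Ogg1-/-* liver on the HFD.

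The Wnt pathway members were compared between the genotypes. *Rnf43* and *Znrf3* encode membrane ubiquitin ligases that remove Frizzled receptors from the cell surface and thereby dampen Wnt signalling. On chow *Rnf43* had a log2 signal of 7.67 to 8.18 (median 7.92) in WT livers and 8.18 to 8.72 (median 8.45) in *Ogg1-/-* livers. *Znrf3* had 7.42 to 7.97 (median 7.82) in WT livers and 7.998 to 8.503 (median 8.196) in *Ogg1-/-* livers. Every *Ogg1-/-* liver was above every WT liver in both genes, though by under 0.01 at the nearest livers in *Rnf43*. Of the 10 members these 2 were without overlap, against 1.06% of all probe sets. The difference was 0.49 for *Rnf43* (standard error 0.12, limma adjusted p = 0.0537) and 0.41 for *Znrf3* (standard error 0.11, limma adjusted p = 0.0969). Neither passed, and with the axis score as a covariate *Rnf43* differed by 0.39 (adjusted p = 0.226). With the array name ending as a covariate it differed by 0.87 (adjusted p = 0.31). *Rnf43* lay on the other side of the threshold without any 1 of 6 of the 24 livers (adjusted p from 0.0317 to 0.0443), which were WT chow replicate 3, *Ogg1-/-* chow replicates 5 and 6 and WT HFD replicates 3, 4 and 5. *Znrf3* passed only without *Ogg1-/-* chow replicate 6 (adjusted p = 0.0425).

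On the HFD the genotypes differed in these ligases by 0.07 for *Rnf43* (95% confidence interval -0.17 to 0.31) and by 0.22 for *Znrf3* (-0.01 to 0.45). *Rnf43* in WT livers ran from 7.95 to 8.67 (median 8.34) on the HFD, overlapping with the WT chow livers. It was 0.40 higher on the HFD in WT livers (limma adjusted p = 0.107, and 0.0397 with a difference of 0.48 without WT HFD replicate 4). In *Ogg1-/-* livers it differed by -0.03 between the diets (95% confidence interval -0.26 to 0.21). The 3 groups other than WT chow thus had *Rnf43* means between 8.36 and 8.45, against 7.95 in WT livers on chow, and those 3 did not differ past the test where compared.

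On chow 0 of the 10 members passed (limma), against 0.478% of all probe sets, and 0 reached a fold of 1.5 with it, against 0.242% of all. At an unadjusted p under 0.05 there were 3 members, *Rnf43*, *Znrf3* and *Slc1a2*, against 18% of all probe sets. All 10 differences were positive, with a median of 0.19 against 0.02 over all probe sets. This comparison and that of the diets in WT livers share the 6 WT chow livers, in which 8 of the 10 genes (all but *Oat* and *Lgr5*) had their lowest group mean.

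*Lgr5*, which encodes a receptor for R-spondins and marks the hepatocytes at the central vein, was the only member that passed the test between the genotypes on the HFD. In WT livers its log2 signal ran from 7.45 to 8.28 with a median of 7.90, and in *Ogg1-/-* livers from 7.21 to 7.51 with a median of 7.48. A single WT liver lay within the range of the *Ogg1-/-* livers. *Lgr5* was lower by 27.4% in *Ogg1-/-* livers, a log2 difference of -0.46 (standard error 0.13, limma adjusted p = 0.0151), and it passed without any 1 of the 24 livers (adjusted p from 0.0045 to 0.0439). With the axis score as a covariate the difference was -0.32 (adjusted p = 0.241). On chow *Lgr5* ran from 7.54 to 7.86 (median 7.62) in WT livers and from 7.264 to 8.004 (median 7.812) in *Ogg1-/-* livers, a difference of 0.09 (95% confidence interval -0.18 to 0.36). The change of the genotype difference with diet was -0.55 (standard error 0.18, unadjusted p = 0.00629, limma adjusted p = 0.546), so that the genotype difference was not shown to change with diet.

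Thus 1 of 10 members passed on the HFD, against 19.8% of all probe sets, and 0 of 10 reached a fold of 1.5 with it, against 5.89% of all. None was without overlap, against 12.1% of all probe sets. The gene set had 5 positive and 5 negative differences with a median of 0.01, and the median over all probe sets was 0.02. *Axin2*, a scaffold of the β-catenin destruction complex whose own gene is a Wnt target, differed by -0.17 (95% confidence interval -0.37 to 0.04). Its group means were 7.03 ± 0.10 and 7.07 ± 0.16 (SD, n = 6) in WT and *Ogg1-/-* livers on chow, and 7.23 ± 0.22 and 7.07 ± 0.18 on the HFD. Those ranges overlapped throughout. *Tbx3*, a repressor of transcription that lies under β-catenin in the liver, had means of 8.48 ± 0.35 and 8.79 ± 0.37 on chow and of 8.68 ± 0.27 and 8.81 ± 0.25 on the HFD in WT and *Ogg1-/-* livers (SD, n = 6). Its groups overlapped in every comparison, and on chow the interval of its genotype difference ran from -0.04 to 0.67.

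**Figure D2:**
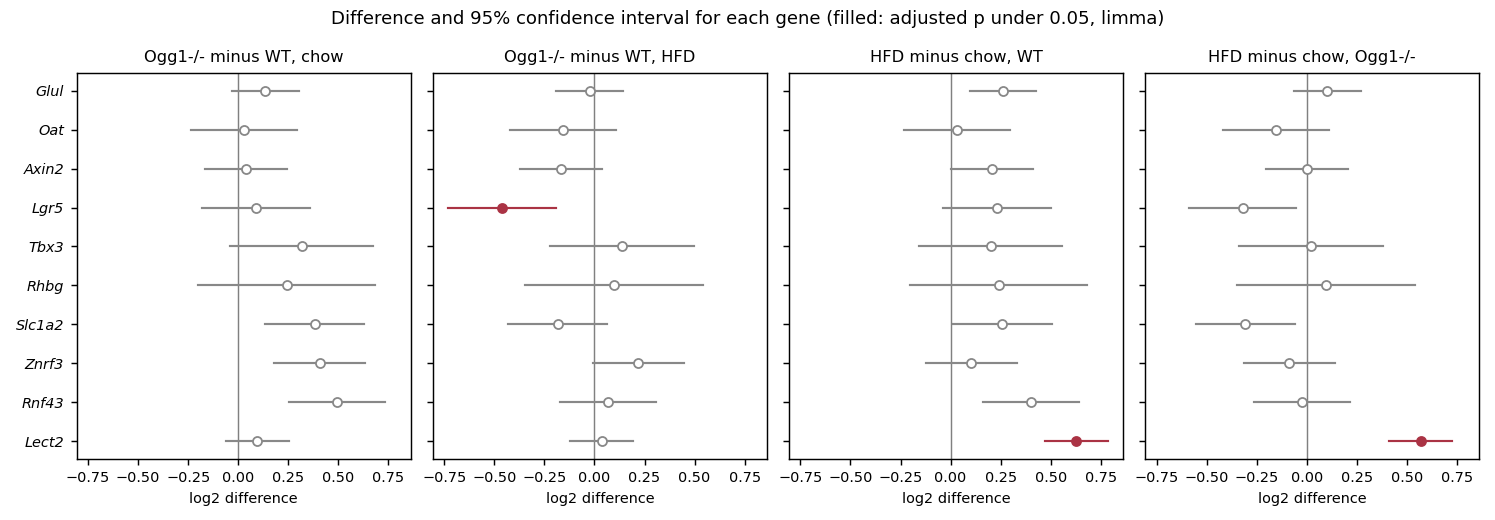
Log2 difference (points) with its 95% confidence interval from limma (lines) for each of the 10 genes in 4 comparisons, with genes in rows. Filled red points passed at an adjusted p under 0.05: *Lgr5* at -0.46 between the genotypes on the HFD, and *Lect2* at 0.63 and 0.57 between the diets. The other 37 points are open.

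The genes of nitrogen handling followed. *Slc1a2*, which encodes a glutamate transporter that brings glutamate into the cells that make glutamine, had opposite signs of the genotype difference in the diets. On chow its log2 signal ran from 10.04 to 10.26 (median 10.17) in WT livers and from 10.05 to 10.91 (median 10.58) in *Ogg1-/-* livers. On the HFD it ran from 10.22 to 10.69 (median 10.40) in WT livers and from 9.89 to 10.55 (median 10.25) in *Ogg1-/-* livers. On chow 5 of 6 *Ogg1-/-* livers were above all WT livers, and replicate 1 was among the WT livers. The difference was 0.38 on chow (standard error 0.12, limma adjusted p = 0.141) and -0.18 on the HFD (standard error 0.12, limma adjusted p = 0.318). The change between the diets was -0.57 (standard error 0.17, unadjusted p = 0.00279, limma adjusted p = 0.52). No member passed this test, nor did any probe set but 1 (0.00281% of all), and the 10 members' differences were all negative with a median of -0.19 (all probe sets 0.00). This change is computed in part from the same 6 WT chow livers, so its signs are not separate from those of the genotype differences on chow. At an unadjusted p under 0.05 there were 3, *Slc1a2*, *Lgr5* and *Rnf43*, against 6.88% of all probe sets.

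These values rest in part on the *Ogg1-/-* chow liver that stood apart. Its signal lay below the other 5 of its group in *Glul*, *Oat*, *Lgr5*, *Slc1a2* and *Znrf3*, above them in *Tbx3*, *Rhbg* and *Rnf43*, and among them in *Axin2* and *Lect2*. Without it, the change of the *Slc1a2* genotype difference with diet was -0.66 (limma adjusted p = 0.0318), and 1.52% of all probe sets passed. That of *Lgr5* was then -0.65 (adjusted p = 0.052). Between the diets in *Ogg1-/-* livers, 4 of 10 members then passed, against 25.4% of all probe sets. *Lgr5* fell by 0.41 (adjusted p = 0.014), *Slc1a2* by 0.41 (adjusted p = 0.00732) and *Oat* by 0.30 (adjusted p = 0.0208) on the HFD, and *Lect2* rose by 0.56 (adjusted p = 5.09e-05). With all livers the first 3 differed by -0.32, -0.31 and -0.15 (limma adjusted p = 0.118, 0.104 and 0.496).

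*Oat*, which encodes ornithine aminotransferase, had means of 13.05 ± 0.09 and 13.08 ± 0.39 on chow and 13.08 ± 0.13 and 12.93 ± 0.19 on the HFD in WT and *Ogg1-/-* livers (SD, n = 6). Its wide spread in *Ogg1-/-* livers on chow came with replicate 1 at 12.37, when the others ran from 12.98 to 13.45. *Rhbg*, which encodes an ammonia transporter of the hepatocyte membrane, had means of 7.52 ± 0.16 and 7.76 ± 0.43 on chow and 7.76 ± 0.40 and 7.86 ± 0.50 on the HFD (SD, n = 6). It had the largest SD of the 10 genes in 3 of the 4 groups, and the interval of its genotype difference on chow, -0.20 to 0.68, allows changes in either direction.

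The pathway upstream of these genes was then described from lists of Wnt ligands and R-spondins, receptors, transduction genes and inhibitors. The list of 25 called ligands here and below also holds *Porcn* and *Wls*, which serve the release of Wnt ligands and are not ligands themselves. On chow 0 genes of any of the 4 lists passed between the genotypes (limma), with 5 of 25 ligands, 3 of 17 receptors, 12 of 23 transduction genes and 3 of 18 inhibitors at an unadjusted p under 0.05, against 18% of all probe sets. *Porcn* (0.33, unadjusted p = 0.00587) and *Wls* (0.15, unadjusted p = 0.0223) are among those 5. The gene with the smallest p was *Wnt4* (-0.22, adjusted p = 0.144) among ligands, *Lrp6* (-0.49, adjusted p = 0.183) among receptors, *Gsk3a* (0.43, adjusted p = 0.109) in transduction and *Tle1* (0.33, adjusted p = 0.141) among inhibitors.

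On the HFD, *Rspo3*, which encodes the R-spondin of the central vein and is a ligand of *Lgr5*, was lower in *Ogg1-/-* livers. Its log2 signal ran from 7.01 to 7.46 (median 7.36) in WT livers and from 6.73 to 7.01 (median 6.88) in *Ogg1-/-* livers, all of which were below every WT liver, by under 0.01 at the nearest livers. Of all probe sets 12.1% were without overlap there. The difference was -0.42 (standard error 0.09, limma adjusted p = 0.00319), and -0.28 with the axis score as a covariate (adjusted p = 0.0673). On chow it ran from 7.14 to 7.46 (median 7.28) in WT livers and from 6.89 to 7.42 (median 7.22) in *Ogg1-/-* livers. Of the 25 ligands 1 rose and 2 fell, against 19.8% of all probe sets passing. These were *Wnt5b* at 0.32 (adjusted p = 0.0133), *Wnt4* at -0.21 (adjusted p = 0.0359) and *Rspo3*, and none passed with the axis score as a covariate. *Wnt2* and *Wnt9b*, ligands of central vein endothelium named here outside the rule for named genes and after their values were seen, differed by 0.14 (adjusted p = 0.569) and 0.00 (adjusted p = 0.995).

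Of 17 other receptor genes 2 rose and 2 fell, against 19.8% of all probe sets passing. *Lrp6*, a co-receptor of Frizzled, ran from 8.14 to 8.69 (median 8.54) in WT livers and from 7.48 to 7.98 (median 7.80) in *Ogg1-/-* livers on the HFD, without overlap, as did 12.1% of all probe sets. It differed by -0.68 (standard error 0.19, limma adjusted p = 0.0133), and by -0.18 with the axis score as a covariate (adjusted p = 0.299). *Fzd1*, a Frizzled receptor, rose by 0.30 (adjusted p = 0.0468), and *Ror1*, a receptor of Wnt signalling outside β-catenin, fell by 0.26 (adjusted p = 0.0119). Of 23 transduction genes 6 rose and 3 fell, against 19.8% of all probe sets passing. The largest differences were in *Tnks2*, *Tnks* and *Gsk3a*. *Tnks2* and *Tnks* encode tankyrases, which destabilise axin, and differed by -1.04 (adjusted p = 0.00143) and -0.61 (adjusted p = 0.00776). *Gsk3a*, a kinase that phosphorylates β-catenin, rose by 0.48 (adjusted p = 0.00878). With the axis score as a covariate *Tnks2* passed (-0.54, adjusted p = 0.000474), and so did *Csnk1d* of the transduction list (0.23, adjusted p = 0.0477, and 0.31 without the score). *Fzd1* (0.0467, adjusted p = 0.786), *Ror1* (-0.22, adjusted p = 0.128), *Tnks* (-0.26, adjusted p = 0.209) and *Gsk3a* (0.19, adjusted p = 0.222) did not pass with it. *Ctnnb1*, the gene for β-catenin, was named outside the rule and differed by -0.29 (adjusted p = 0.0462), and by -0.052 with the axis score (adjusted p = 0.759).

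Of 18 inhibitor genes 3 rose and none fell on the HFD, against 19.8% of all probe sets passing. *Notum* encodes a secreted enzyme that inactivates Wnt ligands and is itself expressed by pericentral hepatocytes. Its log2 signal on the HFD ran from 6.86 to 7.86 (median 7.43) in WT livers and from 7.63 to 8.52 (median 8.09) in *Ogg1-/-* livers, with overlap. It rose by 0.66 (standard error 0.16, limma adjusted p = 0.00743), and differed by 0.34 with the axis score as a covariate (adjusted p = 0.205). *Tle3*, a co-repressor, rose by 0.35 (adjusted p = 0.0195) and *Kremen1*, a receptor of Dickkopf proteins, by 0.19 (adjusted p = 0.0397). No inhibitor passed with the axis score as a covariate, with *Tle3* at 0.14 (adjusted p = 0.412) and *Kremen1* at 0.11 (adjusted p = 0.381). The medians of the ligand, receptor, transduction and inhibitor lists were 0.09, 0.05, 0.20 and 0.11, against 0.02 over all probe sets.

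Markers of other cells moved beside *Lgr5* and *Rspo3*. Of 12 endothelial markers 6 fell and none rose on the HFD in *Ogg1-/-* livers, against 19.8% of all probe sets passing. The median was -0.36, and *Tek* (-0.73, adjusted p = 0.00488), *Kdr* (-0.60, adjusted p = 0.00819) and *Clec4g* (-0.52, adjusted p = 0.00519) were among those that fell. The mean of the 12 markers ran from 8.28 to 8.45 in WT livers and from 8.04 to 8.22 in *Ogg1-/-* livers, without overlap (single probe sets, 12.1% of all). It ran from 8.18 to 8.49 in WT livers and from 8.01 to 8.44 in *Ogg1-/-* livers on chow, where no marker passed. None of the 12 passed with the axis score as a covariate. In whole liver, fewer cells of a type and less RNA per cell cannot be told apart, and the part of endothelial cells in the *Rspo3* and *Lgr5* values was not tested. Of the other lists on the HFD, 1 of 8 Kupffer cell markers rose and 2 fell, 2 of 7 stellate cell markers and 1 of 6 hepatocyte markers fell, 1 of 4 lymphocyte markers rose, and 0 of 5 cholangiocyte markers passed (none at an unadjusted p under 0.05, against 31.5% of all probe sets). Of all probe sets 19.8% passed there. With the axis score as a covariate *Vsig4* of the Kupffer cell markers passed (-0.51, adjusted p = 0.0202, and -0.85 without the score). No stellate cell, hepatocyte, lymphocyte or cholangiocyte marker passed with it. Like the endothelial mean, the mean of the 6 hepatocyte markers, of which 1 passed, was without overlap on the HFD (single probe sets, 12.1% of all). It ran from 13.254 to 13.426 in WT livers and from 13.044 to 13.246 in *Ogg1-/-* livers, so that the nearest livers lay at 13.254 and 13.246.

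**Figure D3:**
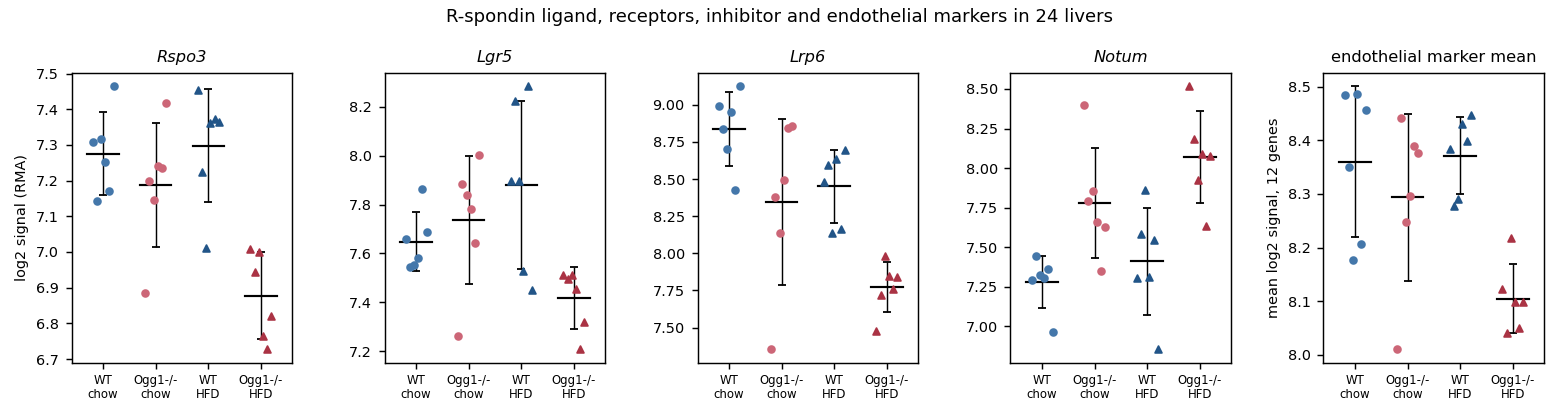
Log2 signal (RMA) of *Rspo3*, *Lgr5*, *Lrp6* and *Notum*, and the mean log2 signal of 12 endothelial markers, in each of the 24 livers (circles, chow; triangles, HFD; horizontal bars, means; vertical bars, SDs over 6 mice). On the HFD all 6 *Ogg1-/-* livers lie below the WT livers in *Rspo3*, *Lrp6* and the endothelial mean, while *Notum* has a median of 8.09 against 7.43.

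Between the diets in WT livers 0 genes of the 4 Wnt lists passed (limma), with 1 of 25 ligands, 3 of 17 receptors, 4 of 23 transduction genes and 0 of 18 inhibitors at an unadjusted p under 0.05, against 13.4% of all probe sets. In *Ogg1-/-* livers *Rspo3*, alone of 25 ligands, fell by 0.31 on the HFD (adjusted p = 0.0263). *Fzd1*, alone of 17 receptors, rose by 0.41 (adjusted p = 0.0206), and *Kremen1*, alone of 18 inhibitors, rose by 0.22 (adjusted p = 0.0319). Of the 23 transduction genes 3 rose and 2 fell. *Tnks2* had the largest of these differences, at -0.91 (adjusted p = 0.00369). Of 12 endothelial markers 4 fell there and none rose. Of all probe sets 9.53% passed between the diets in *Ogg1-/-* livers. With the axis score as a covariate *Tnks2* passed (-0.52, adjusted p = 0.000134), and so did *Bcl9* of the transduction list (0.35, adjusted p = 0.0406, and 0.34 without the score). *Rspo3* (-0.20, adjusted p = 0.157), *Fzd1* (0.20, adjusted p = 0.0832), *Kremen1* (0.16, adjusted p = 0.148) and the endothelial markers did not pass with it.

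Other zonated genes were counted beside the 10. Of 15 further pericentral genes, none passed between the genotypes on chow (5 at an unadjusted p under 0.05, against 18% of all probe sets), and *Slc16a10*, an aromatic amino acid transporter gene, came nearest with 0.48 (limma adjusted p = 0.09). On the HFD 2 rose and 1 fell in *Ogg1-/-* livers, against 19.8% of all probe sets passing. *Cpox*, of haem synthesis, differed by 0.48 (adjusted p = 0.0183), *Slc16a10* by 0.40 (adjusted p = 0.0281) and *Ahr*, which encodes the receptor for dioxins, by -0.44 (adjusted p = 0.02). With the axis score as a covariate none of the 15 passed on the HFD, with *Cpox* at 0.18 (adjusted p = 0.424), *Slc16a10* at 0.25 (adjusted p = 0.343) and *Ahr* at -0.46 (adjusted p = 0.109). *Ahr* lost the call though its difference did not shrink. *Cyp2e1*, the cytochrome P450 of ethanol oxidation, named outside the rule, had means between 14.05 and 14.07 in the 4 groups, and it differed by 0.03 or less in size in all 4 pairs. In WT livers *Cyp27a1*, of bile acid synthesis, fell by 0.29 on the HFD (adjusted p = 0.0382). It also fell in *Ogg1-/-* livers, by 0.34 (adjusted p = 0.00485), where 3 of the 15 rose and 2 fell between the diets, against 9.53% of all probe sets passing. With the axis score as a covariate *Cyp27a1* passed in WT livers (-0.27, adjusted p = 0.0419) and in *Ogg1-/-* livers (-0.30, adjusted p = 0.0187).

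Of 13 periportal genes, which lie at the other end of the lobule, *G6pc* alone passed on chow, against 0.478% of all probe sets. *G6pc* encodes the last enzyme of glucose output and fell by 0.96 in *Ogg1-/-* livers (limma adjusted p = 0.00457). With the axis score as a covariate it also passed on chow (-0.88, adjusted p = 0.0272). On the HFD 2 rose and 2 fell, against 19.8% of all probe sets passing, with the largest difference in *Cdh1*, the gene for E-cadherin. *Cdh1* ran from 7.44 to 9.02 (median 7.95) in WT livers and from 6.38 to 7.47 (median 6.86) in *Ogg1-/-* livers, and only 1 *Ogg1-/-* liver reached into the WT range. It differed by -1.24 (adjusted p = 0.00258), and also fell on the HFD in WT livers by 0.999 (adjusted p = 0.0472) and in *Ogg1-/-* livers by 1.48 (adjusted p = 0.000875). *Hsd17b13*, a lipid droplet protein gene, differed by -0.36 (adjusted p = 0.027) and *Asl*, of the urea cycle, by 0.30 (adjusted p = 0.0301) between the genotypes on the HFD. No periportal gene passed between the genotypes on the HFD with the axis score as a covariate (*Cdh1* at -0.93, adjusted p = 0.0579, *Hsd17b13* at -0.21, adjusted p = 0.367, *Asl* at 0.34, adjusted p = 0.0992). *Asl* too lost the call though its difference did not shrink. Between the diets *Cdh1* then passed in *Ogg1-/-* livers (-1.23, adjusted p = 0.00572) and not in WT livers (-0.84, adjusted p = 0.0653). Without the score, 2 of the 13 fell between the diets in WT livers (*Cdh1* and *Cps1*) and 0 rose, against 0.925% of all probe sets passing. In *Ogg1-/-* livers 2 rose (*G6pc* by 0.61 and *Uroc1* by 0.28) and 2 fell (*Cdh1* and *Cyp2f2*), against 9.53% of all probe sets. With the score *Cps1*, *G6pc* and *Uroc1* kept the call there and *Cyp2f2* did not. The median difference on the HFD was -0.18 for the periportal list and 0.14 for the 15 further pericentral genes, against 0.01 for the 10 members.

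The 10 genes were last compared among the mice of a group, after each group's mean was removed. Of their 45 pairs, 37 were positively correlated over the 24 livers, with r from -0.288 to 0.699 and a median of 0.322. The points share their arrays and array scaling. The share of positive pairs among all genes was not computed, so this count has no background beside it. *Glul* was compared with each of the other 9, with p from 100000 permutations within groups adjusted over the 9 pairs. Over all 24 livers *Lect2* ran with it most closely (r = 0.699, permutation p = 8e-05, adjusted p = 0.00072, Spearman rho = 0.755, permutation p = 0.0001, adjusted p = 0.0009). Without the 2 livers farthest from the median of *Glul*, r was 0.655, and it was 0.627 among the chow livers and 0.817 among the HFD livers. *Slc1a2* (r = 0.564, permutation p = 0.0101, adjusted p = 0.0424) and *Lgr5* (r = 0.505, permutation p = 0.0141, adjusted p = 0.0424) also passed by Pearson's r. By Spearman's rho neither did (0.539 with permutation p = 0.0146 and 0.507 with permutation p = 0.0214, adjusted p = 0.0643 for both), and without the 2 farthest livers r was 0.65 and 0.38. They lost the call without most single livers, passing in 11 and 9 of 24 such sets, whereas *Lect2* passed in 24 of 24.

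The other members had r with *Glul* between 0.284 (*Znrf3*) and 0.546 (*Rhbg*, permutation p = 0.0252, adjusted p = 0.0566), and none passed. Of 19937 other genes, 9.3% had a higher r with *Glul* than *Znrf3*, 4.8% than *Rnf43* and 4.1% than *Oat*. For *Tbx3*, *Axin2* and *Rhbg* the shares were 3.3%, 1% and 0.5%. For *Axin2*, *Tbx3* and *Rhbg*, r was -0.149, -0.083 and 0.057 among the chow livers and 0.705, 0.816 and 0.723 among the HFD livers, a difference that was not tested. The chow values include *Ogg1-/-* chow replicate 1. Without that liver, r over the remaining livers of both diets was 0.582, 0.55 and 0.748, and 0.697 for *Lect2*, so that *Rhbg* then had a higher r than *Lect2*. With 1 liver left out at a time, *Axin2*, *Tbx3* and *Rhbg* passed in 2, 3 and 3 of 24 sets. Among all 19938 genes, the 5 whose signals ran most closely with *Glul* over the 24 livers were *Bmp2* (r = 0.708), *Lect2* (r = 0.699), *Sema5b* (r = 0.697), *Slc25a51* (r = 0.695) and *Rnf121* (r = 0.68). These 5 were picked as the highest of all genes and are a description. *Bmp2* encodes a bone morphogenetic protein secreted by liver endothelial cells.

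**Figure D4:**
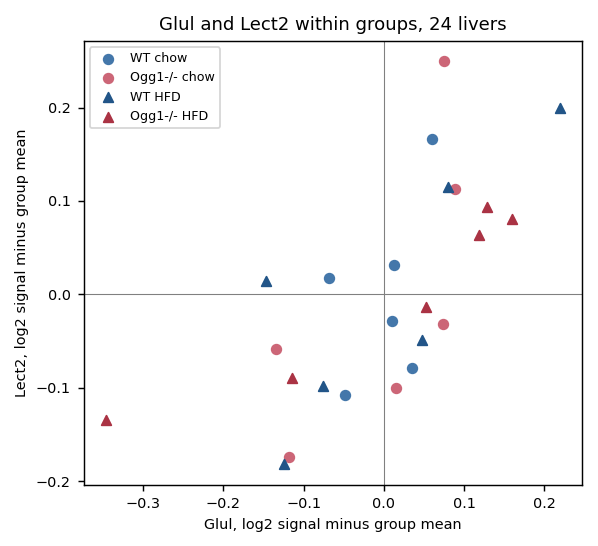
Log2 signal of *Glul* (horizontal axis) against *Lect2* (vertical axis), each minus the mean of its group, for the 24 livers (circles, chow; triangles, HFD; blue, WT; red, *Ogg1-/-*). The points rise together (r = 0.699, and 0.655 without the 2 livers farthest from the median of *Glul*).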

How the data were processed

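Values were read from the deposited table of log2 signals for 35556 probe sets and 24 arrays, for which the processing notes of the authors name robust multiarray averaging (RMA). Log2 signals ran from 1.81 to 14.81 and were used as deposited. Of the probe sets 21789 have a single gene symbol in the platform annotation, 1621 have several and 12146 are unnamed here. Groups and replicate numbers came from the sample labels. A single linear model with the 4 groups was fitted to every probe set (limma 3.58.1, R 4.3.3, lmFit and eBayes), and p-values received the Benjamini-Hochberg adjustment across the whole table. The 10 genes and all lists were chosen with earlier results of these data known. Members were named in full, and of each list up to 3 genes with the largest difference among those that passed, or the one with the smallest p where none did, as well as *Ogg1*, *Dbp*, *Arntl* and the 5 genes most correlated with *Glul*. The axis score is the first principal component of the differences within the 2 chow groups (40.2% of their variation). Correlations were computed with numpy 2.4.6 in Python 3.11.15. Array correlations ran from 0.952 to 0.993, and no 2 arrays were identical. Same-numbered replicates did not deviate together (36 pairs, r from -0.27 to 0.43, median -0.03) and were not paired. The limma fit was tested on simulated data for the genotype difference on the HFD, and the other steps were not tested in this way. The number of arrays limits the precision. Alternatives were median centring, array weights, quantile normalization, a filter on dim probe sets, a trended and robust prior, the methods' t-test, a fit of only the 12 arrays compared, a table with 1 probe set per gene, the second *Glul* probe set, the name ending or axis score as a covariate, a fold of 1.5, a replicate block and leaving out each array.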

Additional observations from a re-analysis of the deposited data

How the results depend on the processing

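The number of members that passed was 0 on chow and 1 on the HFD between the genotypes, 0 in the change with diet, and 1 in each genotype between the diets, and a replicate block gave the same counts (0, 1, 0, 1 and 1). The methods' t-test after Benjamini-Hochberg adjustment gave 0, 1, 1 and 1 for the 4 pairs of groups. On chow it was 1 with median centring, without dim probe sets and with 1 probe set per gene (*Rnf43* in each, adjusted p = 0.0461, 0.0289 and 0.0276, limma). On the HFD it was 0 with the axis score and at a fold of 1.5. Between the diets in *Ogg1-/-* livers it was 3 with array weights and 0 at a fold of 1.5. Without 1 array at a time the counts ran from 0 to 2 on chow, from 0 to 1 in the change with diet, from 1 to 2 between the diets in WT livers and from 1 to 4 in *Ogg1-/-* livers, and stayed at 1 on the HFD. No value that passed changed sign. Of values that did not pass, these did. With quantile normalization *Lect2* on the HFD was -0.0099 and *Rnf43* between the diets in *Ogg1-/-* livers 0.0165. With array weights *Axin2* on chow was -0.0096, the change of *Tbx3* with diet 0.0317 and *Rnf43* between the diets in *Ogg1-/-* livers 0.018. With the name ending *Oat* was -0.0397 on chow and -0.0241 between the diets in WT livers, and *Glul* on the HFD was 0.02. With the axis score *Axin2* and *Rhbg* were -0.0098 and -0.0179 on chow, *Oat*, *Tbx3*, *Rhbg* and *Rnf43* were 0.0638, -0.12, -0.27 and -0.0807 on the HFD, and *Oat*, *Axin2*, *Tbx3* and *Rhbg* were 0.0202, -0.052, -0.18 and -0.19 between the diets in *Ogg1-/-* livers. Without 1 array at a time, values on both sides of 0 were seen on chow for *Oat* (-0.0449 to 0.17), on the HFD for *Glul* (-0.0557 to 0.0454), *Lect2* (-0.0008 to 0.0757), *Rhbg* (-0.0235 to 0.25) and *Rnf43* (-0.0137 to 0.13), in the change with diet for *Rhbg* (-0.27 to 0.0071), and between the diets in *Ogg1-/-* livers for *Axin2* (-0.0644 to 0.0354), *Rhbg* (-0.0353 to 0.25), *Rnf43* (-0.079 to 0.0284) and *Tbx3* (-0.0624 to 0.12). The cause was not tested. The name ending, which rests on WT HFD replicate 5, moved 29 of 50 values by over 1.5 times. On chow *Axin2*, *Glul*, *Lgr5*, *Tbx3*, *Rhbg* and *Lect2* were then 0.52, 0.40, 0.57, 0.79, 0.92 and 0.34 and *Slc1a2* 0.14, none past the test, and between the diets in WT livers *Axin2* was 0.61, *Glul* 0.48 and *Rnf43* 0.72 (none past the test) and *Lect2* 0.83 (adjusted p = 0.0082, limma). The axis score moved 20 of 50 values by over 1.5 times, array weights 15, quantile normalization 11, and median centring 5. The change with diet was not run with 12 arrays alone or by the methods' t-test, which compare 2 groups. No scaling moved the median of all probe sets by 0.1 or more.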
